A study of Mus musculus with 6 samples.

Results

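The genes of death receptor signalling and necroptosis were followed in macrophages given lipopolysaccharide (LPS), a cell wall component of Gram-negative bacteria that binds TLR4. They are Ripk1, Ripk3, Mlkl, Zbp1, Casp8, Cflar, Fadd and Tradd, and they were found by their GENCODE M21 gene names among the Ensembl identifiers of the count table. They make up 8 of its 55335 genes. Bone marrow cells of wild-type (WT) C57BL/6 mice, which per the study were young adult males, were grown for 6 d in medium with L929-conditioned supernatant to give bone marrow-derived macrophages (BMDMs), which were then treated for 1 h with PBS as the control or with LPS. Each condition had 3 libraries of total RNA, numbered by replicate, and the labels give libraries with the same number the same batch. The PBS and LPS groups shared strain, culture and time and differed in the treatment. The LPS dose for these cells is not given in the sources used here. The study's methods describe its experiments as repeated independently, but no source ties these replicates to separate mice or cultures, so p-values measure the spread between these libraries, which may be technical.

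Library totals ran from 37787611 to 41516330 counts. A count of 3 corresponded to 0.063 to 0.0919 CPM (counts scaled to a common library size with TMM factors), so the members, with at least 187 counts in each library, lay far above the floor. The 10 macrophage markers were measured in each library, with a summed level of 30260 to 31550 CPM in PBS and 36200 to 36550 CPM in LPS. Summed CPM of markers of other cells were low and for some lists higher after LPS: T and NK cells (2 of 7 markers passed the filter on low counts) 21.15 to 23.26 in PBS and 30.94 to 31.47 in LPS, neutrophils and their precursors (5 of 6) 11.55 to 13.44 and 14.51 to 16.54, fibroblasts (5 of 5) 13.5 to 14.59 and 15.16 to 17.59, and dendritic cells (5 of 5) 4.053 to 5.418 and 11.8 to 12.34. B cell (2 of 5) and erythroid markers (1 of 4) summed to at most 3.635 and 1.252 CPM in any library. Ly6g had at most 3 counts in each library. The part of these markers in the results was not tested. In bulk RNA, fewer cells of a type and less RNA per cell cannot be told apart.

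When TNF binds its receptor, the adaptor TRADD and the kinase RIPK1 join a membrane complex in which ubiquitin chains hold the signal towards NF-kB and survival. RIPK1 can later move to a cytosolic complex with the adaptor FADD and the protease caspase-8, which drives apoptosis. If caspase-8 is not active, RIPK1, ZBP1 or TRIF can pass the signal through a shared sequence motif, the RHIM, to the kinase RIPK3, which phosphorylates MLKL to break the plasma membrane in necroptosis. cFLIP, the product of Cflar, is a relative of caspase-8 that pairs with it and can restrain both forms of death. Macrophages answering LPS depend on this balance because TLR4 reaches RIPK1 and RIPK3 through TRIF.

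Cflar and Casp8, which encode this brake and its protease, are direct neighbours on the plus strand of chromosome 1 (GRCm38), Cflar at 58711508 to 58758884 and Casp8 at 58795374 to 58847503, with 36489 bp between them. Their RefSeq promoter windows (GRCm38.p6, 250 bases before and 50 after a transcript start) are printed here 5′ to 3′ because the fold changes of these neighbours were so unlike, and with them the window of Ripk1, the member that fell most, that held the motif matches. Capitals mark matches on either strand to the motifs searched, which were the NF-kB consensus, AP-1 (TGANTCA), the interferon response element ISRE (GAAANNGAAA), the STAT element GAS (TTCNNNGAA) and the TATA box (TATAAA).
Cflar, chr1:58711241-58711540, plus strand: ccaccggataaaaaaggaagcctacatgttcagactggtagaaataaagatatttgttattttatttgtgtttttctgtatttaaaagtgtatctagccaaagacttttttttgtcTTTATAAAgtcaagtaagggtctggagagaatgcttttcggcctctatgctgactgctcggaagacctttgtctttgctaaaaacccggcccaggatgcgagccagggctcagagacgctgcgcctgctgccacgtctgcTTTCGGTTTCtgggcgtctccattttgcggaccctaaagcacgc
Casp8, chr1:58802252-58802551, plus strand: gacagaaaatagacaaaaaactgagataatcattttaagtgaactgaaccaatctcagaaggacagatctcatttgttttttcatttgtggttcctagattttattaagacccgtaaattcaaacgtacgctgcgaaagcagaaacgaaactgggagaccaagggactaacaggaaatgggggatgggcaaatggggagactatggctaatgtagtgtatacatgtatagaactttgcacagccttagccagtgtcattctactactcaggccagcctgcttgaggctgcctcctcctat
Ripk1, chr13:34002624-34002923, plus strand: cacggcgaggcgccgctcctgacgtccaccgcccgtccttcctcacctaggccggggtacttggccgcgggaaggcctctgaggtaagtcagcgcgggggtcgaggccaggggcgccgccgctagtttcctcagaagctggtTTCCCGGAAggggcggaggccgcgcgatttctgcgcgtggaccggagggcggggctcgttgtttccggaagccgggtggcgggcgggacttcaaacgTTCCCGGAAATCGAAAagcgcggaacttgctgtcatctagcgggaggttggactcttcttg

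The Cflar window had its start site 17 bp before the annotated gene and held an ISRE match 6 bases past that start and overlapping TATA matches at -134 and -132. Casp8's window belongs to a transcript that starts 7128 bp inside the annotated gene, its first 250 bases lie in an intron and its last 50 in an exon, and none of the 5 motifs matched there. The Ripk1 window lies around a start 511 bp inside the gene, 133 of its bases are exonic, and it held GAS matches at -108 and -11 and an ISRE match at -5 that overlaps the second of them. A second Ripk1 window, around the outermost start, and the windows of Fadd, Mlkl and Ripk3 held no match, and 6 of the 8 genes had a window, 7 windows in all. Among all RefSeq windows of this length 8.46% held the NF-kB consensus, 7.81% AP-1, 3.44% ISRE, 8.30% GAS and 13.6% the TATA box. A match is a description of letters, not a site.

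After 1 h of LPS the TMM-scaled level of Cflar RNA was 9.62 times that of the controls, while that of Casp8 was nearly level. Transcripts of Ripk1, Fadd, Tradd and Zbp1 fell by 0.37 to 0.62 on the log2 scale, and for Ripk3 and Mlkl the groups overlapped. All 8 members passed the filter on low counts. By the criteria of an adjusted p under 0.05 (edgeR quasi-likelihood test, Benjamini-Hochberg over 15687 tested genes) and an absolute log2 fold change above 1, 1 member rose and 0 fell, beside 10.5% of tested genes that rose and 10.4% that fell. By the adjusted p alone 1 rose and 4 fell, beside 32.9% and 34.9%. The median log2 fold change was -0.21 over the members and -0.01 over the tested genes. The 3 LPS libraries did not overlap the 3 PBS libraries for 6 of the 8 members, beside 70.5% of tested genes, so separated groups were common in this comparison.

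**Figure D1:**
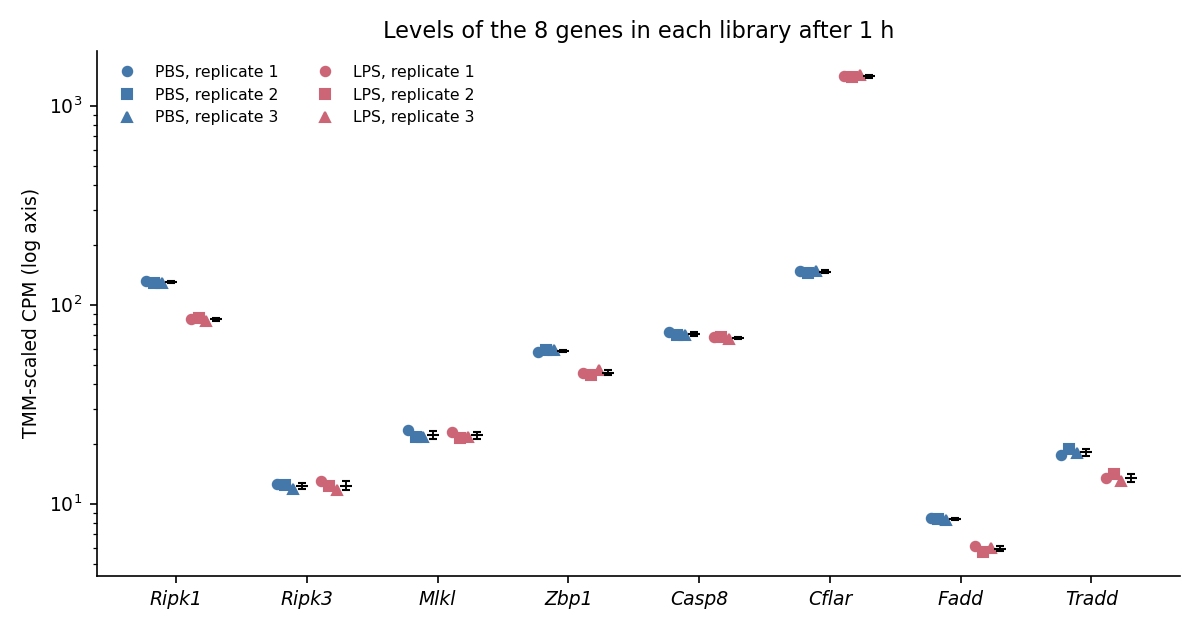
Level of each member in TMM-scaled CPM (log axis), with a point for each library (blue PBS, red LPS, shapes for replicates 1 to 3) and a black bar for the mean ± SD of 3 libraries. Cflar moved from about 146.3 to 1407 CPM, Ripk1, Zbp1, Fadd and Tradd moved down with no overlap between groups, and the Ripk3 and Mlkl libraries overlapped.

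Cflar (ENSMUSG00000026031.15) encodes cFLIP, the brake on caspase-8. Its counts were 7051, 6482 and 6792 in PBS replicates 1 to 3 and 47213, 45172 and 48697 in LPS, or 148.1, 143.5 and 147.2 against 1407, 1384 and 1431 scaled CPM. Each LPS library lay far above each PBS library, and the spread within a group was small, with means of 146.3 ± 2.45 and 1407 ± 23.4 CPM (SD, n = 3). The log2 fold change was 3.27 with an SE of 0.04 and a 95% interval of 3.19 to 3.34 (edgeR quasi-likelihood test, adjusted p = 5.87e-22). Within batches 1, 2 and 3 the log2 ratios were 3.25, 3.27 and 3.28. Cflar took 0.0168% of all counts in PBS and 0.122% in LPS, and its fold change ranked 425 from the top of 15687 tested genes.

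Casp8 (ENSMUSG00000026029.14) encodes caspase-8, the protease that starts receptor-driven apoptosis and cleaves the necroptosis kinases. Its scaled CPM were 72.83, 70.08 and 70.63 in PBS and 68.68, 68.57 and 67.43 in LPS. The LPS libraries lay just below the PBS libraries without overlap, but the difference did not pass the test, with a log2 fold change of -0.06, an SE of 0.04 and a 95% interval of -0.14 to 0.01 (edgeR quasi-likelihood test, adjusted p = 0.136). This interval, under TMM scaling, leaves room for a small fall of Casp8 and is far from the change of its neighbour. With upper quartile scaling and with library size alone the estimates were -0.20 and -0.47, outside the interval (same edgeR test, adjusted p = 5.59e-05 and 1.61e-09).

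The ratio of Cflar to Casp8 counts within a library does not depend on the scaling between libraries. It was 2.03, 2.05 and 2.08 in the PBS libraries and 20.5, 20.2 and 21.2 in the LPS libraries. The log2 ratio thus moved from 1.04 ± 0.02 to 4.37 ± 0.04 (SD, n = 3), a 10.04-fold change in the ratio of brake to protease counts, and the groups were far apart. With 3 libraries against 3 the exact two-sided permutation test could give no p below 0.1, which was its value here (adjusted over 5 ratios, 0.167). That test leaves out the pairing by batch. With it, the exact permutation test by sign flips gave p = 0.25, the smallest it can give. The ratios use counts per gene, and Cflar gives several splice forms whose proteins differ in length, which a count per gene does not separate. The ratio therefore does not show how far either form of death was restrained.

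**Figure D2:**
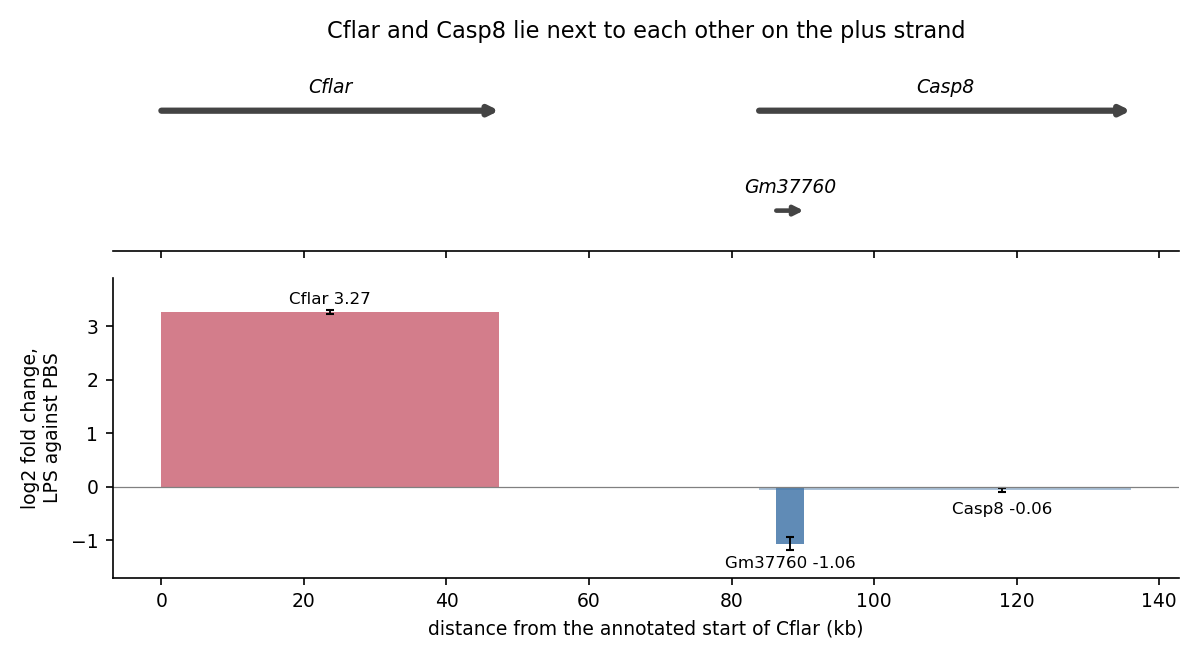
Upper panel, Cflar, Casp8 and the annotated model Gm37760 inside Casp8, placed by distance from the annotated start of Cflar in kb, with arrows in the direction of transcription. Lower panel, log2 fold change of each (LPS against PBS, red above 0 and blue below) with the SE as the black bar, 3.27 for Cflar, -0.06 for Casp8 and -1.06 for Gm37760.

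Casp8 holds a further annotated transcript, Gm37760, on the same strand (chr1:58797783-58801623), which shares 0 exonic bases with it. Gm37760 is a model of unknown coding status whose counts were 204, 196 and 219 in PBS and 65, 74 and 75 in LPS, a log2 fold change of -1.06 with an SE of 0.12 (edgeR quasi-likelihood test, adjusted p = 3.77e-07). It ends before the printed Casp8 window begins. In total RNA, reads of this model cannot be told apart from unspliced Casp8 RNA. Gm37760 fell past the criteria, but not without LPS replicate 1 (-0.9963), and its difference from the change of Casp8 was not tested.

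Ripk1 (ENSMUSG00000021408.15, chr13:34002363-34037147, plus strand) encodes the kinase that stands where survival, apoptosis and necroptosis part. Its scaled CPM were 131.1, 128.7 and 128 in PBS and 84.66, 85.33 and 82.86 in LPS, from 6242, 5813 and 5908 against 2841, 2785 and 2820 counts. The groups were clearly apart, with means of 129.3 ± 1.61 and 84.3 ± 1.28 CPM (SD, n = 3). The scaled PBS level was 1.53 times the LPS level, a log2 fold change of -0.62 with an SE of 0.03 and a 95% interval of -0.69 to -0.55 (edgeR quasi-likelihood test, adjusted p = 1.21e-11). The ratios within batches were -0.63, -0.59 and -0.63, and this was the largest fall among the members, still short of the fold criterion.

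The first exons of Ripk1 share 241 bases with Serpinb6a, a gene of the opposite strand that encodes a protease inhibitor. Serpinb6a had 567.4 to 592.5 CPM in PBS and 584.7 to 601 CPM in LPS and a log2 fold change of 0.04 with an SE of 0.03 (adjusted p = 0.30, same edgeR test), which turned to -0.10 when libraries were scaled by their upper quartile and to -0.36 when scaled by their totals. Whether the counting used strand is not given in the sources used here, so reads from the shared bases cannot be told apart. The pseudogene Gm17084, whose 511 bases all lie in a Ripk1 exon on the same strand, was at 0 counts in each library. How reads over 2 genes were counted is not given, and such reads may be lost to both. This 0 therefore does not show whether Gm17084 was transcribed.

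Fadd (ENSMUSG00000031077.7, chr7:144577318-144582463, minus strand) encodes the adaptor that brings caspase-8 and cFLIP to the receptor complex. It was the least abundant member, with 404, 377 and 384 counts in PBS and 205, 187 and 204 in LPS, or 8.485, 8.345 and 8.322 against 6.109, 5.729 and 5.994 scaled CPM. The groups did not overlap, and the log2 fold change was -0.50 with an SE of 0.08 and a 95% interval of -0.67 to -0.32 (edgeR quasi-likelihood test, adjusted p = 3.64e-05). Its antisense partner Faddos, which shares 239 exonic bases, had at most 1 count in any library.

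Tradd (ENSMUSG00000031887.13, chr8:105258286-105264609, minus strand) encodes the adaptor that binds the TNF receptor itself. Its scaled CPM were 17.52, 18.9 and 18.01 in PBS and 13.44, 14.06 and 12.93 in LPS. Again each LPS library lay below each PBS library, and the log2 fold change was -0.43 with an SE of 0.06 and a 95% interval of -0.56 to -0.30 (edgeR quasi-likelihood test, adjusted p = 7.67e-06). The adaptors were also compared within libraries. Fadd had 0.485, 0.442 and 0.462 counts for each Tradd count in PBS and 0.455, 0.408 and 0.464 in LPS, and these groups overlapped (difference of log2 ratios -0.07, exact permutation test p = 0.5, two-sided, adjusted 0.625).

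Ripk3 (ENSMUSG00000022221.14, chr14:55784995-55788865, minus strand) encodes the kinase that commits a cell to necroptosis. It had 12.58, 12.35 and 11.79 scaled CPM in PBS and 12.99, 12.26 and 11.72 in LPS. The groups overlapped, and the log2 fold change was 0.01 with an SE of 0.07 and a 95% interval of -0.13 to 0.15 (edgeR quasi-likelihood test, adjusted p = 0.911).

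Mlkl (ENSMUSG00000012519.14, chr8:111311797-111338177, minus strand) encodes the substrate of RIPK3 that carries out membrane rupture. It had 23.33, 21.54 and 21.54 scaled CPM in PBS and 23, 21.48 and 21.68 in LPS. Here too the groups overlapped, with a log2 fold change of -0.01, an SE of 0.05 and a 95% interval of -0.12 to 0.11 (edgeR quasi-likelihood test, adjusted p = 0.933). Mlkl had 1.85, 1.74 and 1.83 counts for each Ripk3 count in PBS and 1.77, 1.75 and 1.85 in LPS (difference of log2 ratios -0.01, exact permutation test p = 0.9, two-sided). Under TMM scaling the intervals leave room for log2 changes from -0.13 to 0.15 for Ripk3 and from -0.12 to 0.11 for Mlkl. With library size alone the estimates were -0.40 and -0.41, outside these intervals.

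Zbp1 (ENSMUSG00000027514.14, chr2:173206612-173218923, minus strand) encodes a sensor of left-handed nucleic acids that reaches RIPK3 through its own RHIM, and it is widely known as an interferon-induced gene. Its scaled CPM were 57.96, 59.19 and 59.12 in PBS and 45.2, 44.46 and 47.1 in LPS. At this time point the LPS libraries were the lower ones, with a log2 fold change of -0.37, an SE of 0.04 and a 95% interval of -0.45 to -0.28 (edgeR quasi-likelihood test, adjusted p = 1.87e-07) and batch ratios of -0.36, -0.41 and -0.33.

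Within each library the counts of the genes for the upstream RHIM proteins, Ripk1 and Zbp1, were also set against those of Ripk3. Ripk1 had 10.41, 10.41 and 10.85 counts for each Ripk3 count in PBS and 6.51, 6.96 and 7.06 in LPS, a difference of log2 ratios of -0.63. Zbp1 had 4.61, 4.79 and 5.01 in PBS and 3.48, 3.62 and 4.01 in LPS, a difference of -0.38. Neither pair of groups overlapped. Both gave the smallest p of the unpaired test (exact permutation test, two-sided, p = 0.1, adjusted 0.167). With libraries paired by batch, the exact permutation test by sign flips gave p = 0.25 for both ratios, the smallest it can give.

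**Figure D3:**
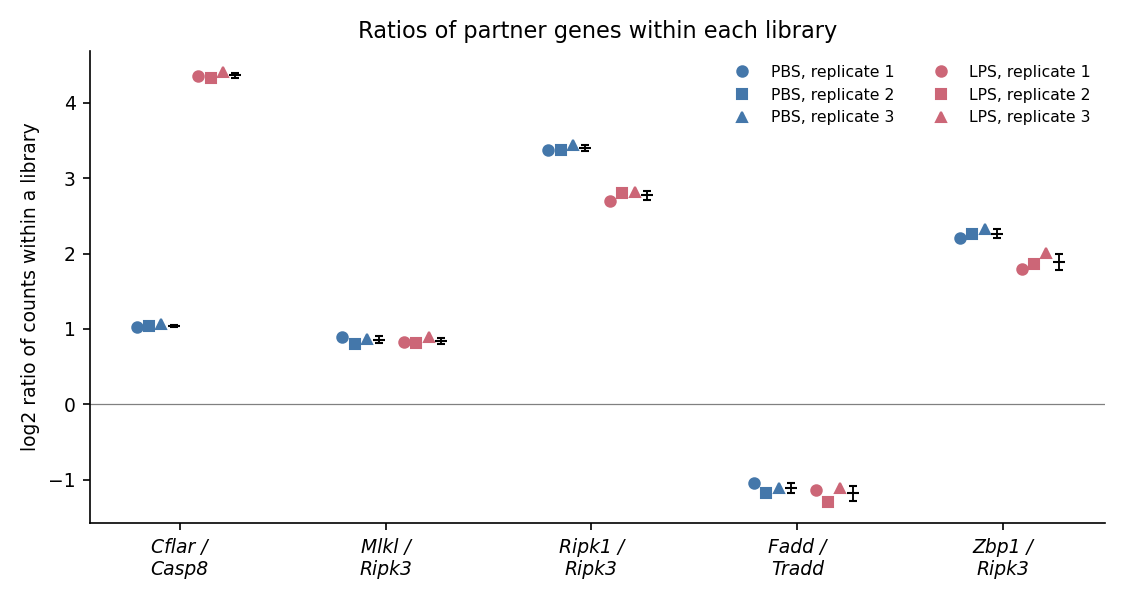
Log2 ratio of the counts of partner genes within each library (blue PBS, red LPS, shapes for replicates 1 to 3), with black bars for the mean ± SD of 3 libraries. Cflar to Casp8 rose from about 1.04 to 4.37, Ripk1 to Ripk3 and Zbp1 to Ripk3 were lower in LPS, and Mlkl to Ripk3 and Fadd to Tradd overlapped.

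The small differences depend on how libraries are set to a common scale, because the TMM factors were 1.15 in PBS and 0.86 to 0.87 in LPS. With library size alone the median of all tested genes moved by -0.40, with upper quartile scaling by -0.14 and with DESeq2 size factors by 0.02. With library size alone 7 of the 8 members fell by the adjusted p, Ripk1 at -1.02 then passing the fold criterion, and Ripk3, Mlkl and Casp8 stood at -0.40, -0.41 and -0.47, next to a median of -0.42. The rise of Cflar and the falls of Ripk1, Fadd, Tradd and Zbp1 were past the adjusted p under each of these scalings.

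**Figure D4:**
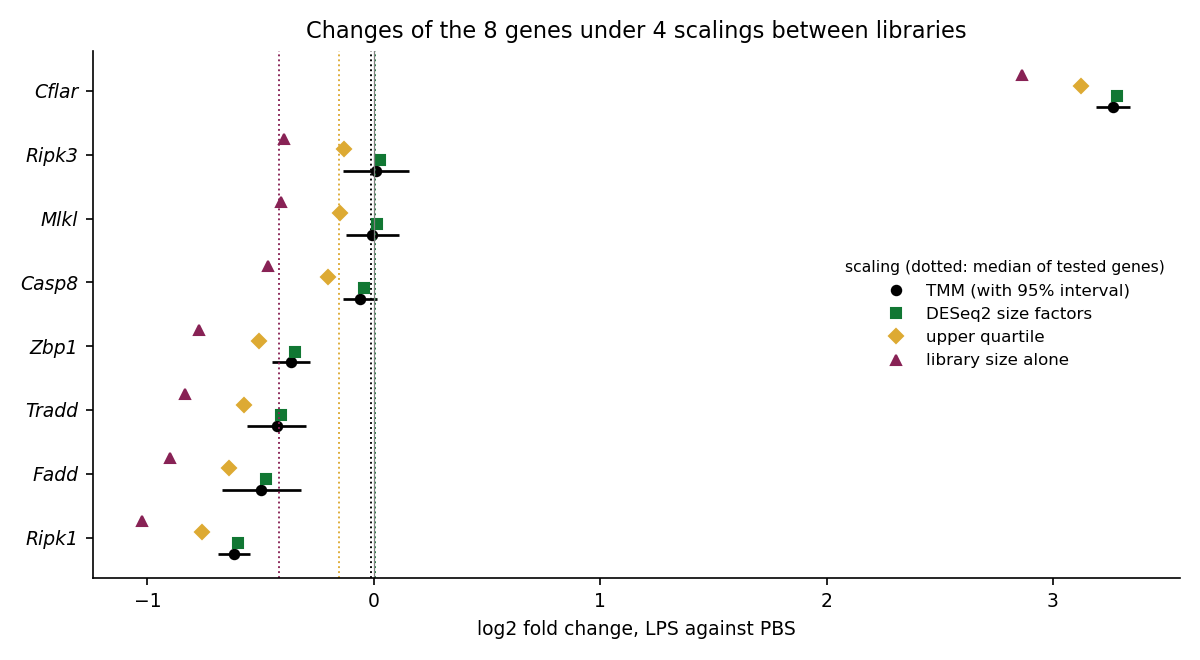
Log2 fold change of each member (LPS against PBS) under 4 scalings, with the 95% interval for TMM as a black line and the median of the tested genes under each scaling as a dotted line. Cflar stands at 2.86 to 3.29, Ripk1, Fadd, Tradd and Zbp1 lie to the left of the median of each scaling, and Ripk3, Mlkl and Casp8 lie close to it.

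Per kilobase of exon, the order of the members was led by Casp8 in PBS and by Cflar in LPS. In PBS the levels in CPM per kilobase were 24.6 ± 0.50 for Casp8, 16.7 ± 0.20 for Zbp1, 15.5 ± 0.19 for Ripk1, 11.5 ± 0.19 for Cflar, 9.72 ± 0.38 for Tradd, 9.61 ± 0.45 for Mlkl, 5.34 ± 0.18 for Ripk3 and 2.15 ± 0.02 for Fadd (SD, n = 3). Tradd and Mlkl overlapped, and the other neighbours in this order did not. In LPS they were 111.1 ± 1.85 for Cflar, 23.6 ± 0.24 for Casp8, 12.9 ± 0.39 for Zbp1, 10.1 ± 0.15 for Ripk1, 9.58 ± 0.36 for Mlkl, 7.22 ± 0.30 for Tradd, 5.38 ± 0.28 for Ripk3 and 1.52 ± 0.05 for Fadd, and here Ripk1 and Mlkl overlapped. The place of Cflar in PBS rests on the length used, since its exons together cover 12669 bp and its longest transcript 6572 bp, and by the latter it stood second in PBS at 22.3 CPM per kilobase and Zbp1, at 17.7, came after Ripk1.

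Among 10713 protein-coding genes averaging 50 or more counts, the course over the 6 libraries nearest to that of Cflar belonged to Jak2, Rapgef2 and Frmd6, by the distance between centred log2 CPM (0.0686, 0.0789 and 0.0858). Their log2 fold changes were 3.31, 3.24 and 3.31, and in PBS they had 56.7, 61.1 and 21.3 CPM. The genes nearest to Ripk1 were Tmem229b, Abcg1 and Gtf2h1 at distances of 0.0296, 0.0327 and 0.0406, with log2 fold changes of -0.61, -0.62 and -0.60. The 6 libraries form 2 groups, so this measure largely compares fold changes.

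Around the members, 64 further genes of the pathway were held in 7 lists, and 61 were tested. Of these 13 rose and 5 fell past the criteria, beside 10.5% and 10.4% of all tested genes, and 34 rose and 19 fell by the adjusted p alone, beside 32.9% and 34.9%. The median log2 fold change was 0.20, beside -0.01 over the tested genes. The counts of each list are to be read against the same shares, and in a list of 6 to 12 genes 1 call is near them. The adjusted p-values in the following lists are those of the edgeR quasi-likelihood test over all tested genes.

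Among death ligands and receptors, 4 of 8 tested genes rose, 0 fell past the criteria and the median was 1.18. Tnf, the ligand of the pathway, had 20.3 ± 1.19 CPM in PBS and 2302 ± 49.8 in LPS, a log2 fold change of 6.83 (SE 0.05, adjusted p = 4.99e-24). Tnfrsf1b, the second TNF receptor, which is counted here but has no death domain, rose from 520.7 to 1535 CPM (log2 fold change 1.56). Fas, the receptor of Fas ligand, rose by 1.55 and Tnfsf15, a TNF-like ligand, by 1.59 on the log2 scale. Tnfrsf1a, the death domain receptor for TNF that binds TRADD, rose by 0.41 on the log2 scale and had 0.01 with library size alone (edgeR, adjusted p = 0.864). The ligand Tnfsf10, known as TRAIL, fell by 0.65, and Lta, Fasl and Tnfrsf25 were under the filter. Tnfrsf21 had a log2 fold change of 0.14, which turned to -0.26 with library size alone.

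In the list of ubiquitin ligases and deubiquitinases that edit RIPK1 in the membrane complex, 5 of 12 genes rose, 0 fell past the criteria and the median was 0.48. Tnfaip3, which encodes the ubiquitin editor A20, went from 39.1 ± 0.98 to 4049 ± 36.6 CPM, a log2 fold change of 6.70 (SE 0.04, adjusted p = 7.70e-25). Birc3 and Birc2, which encode the cIAP ligases that ubiquitinate RIPK1, had log2 fold changes of 2.66 and 1.28, Tnip1, the partner of A20, had 2.47 and Spata2, which links the deubiquitinase CYLD to the complex, had 1.04. The call on Spata2 was lost with library size alone (0.64), with the upper quartile (0.90), without PBS replicate 1 (0.99) and without LPS replicate 3 (0.9988), and that on Birc2 with library size alone (0.87). Cyld itself had 0.42, with 0.01 under library size alone. Rbck1, a subunit of the linear ubiquitin ligase, and the deubiquitinase gene Otulin had -0.00 and 0.01 and did not pass the test. The other subunits of that ligase, Rnf31 and Sharpin, had -0.73 and -0.32 (edgeR, adjusted p = 7.64e-11 and 3.01e-05).

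Of the kinases that phosphorylate RIPK1 and their subunits, 1 of 10 rose and 1 fell past the criteria, with a median of 0.43. Mapkapk2, which encodes MK2, rose from 338.1 to 896 CPM (log2 fold change 1.41), and Tab1, a subunit of the TAK1 kinase complex, fell from 30.1 to 11.4 CPM (-1.41). The IKK-related kinases Ikbke and Tbk1 rose by 0.64 and 0.50 and the TAK1 subunit Tab2 by 0.49 on the log2 scale. Under library size alone Ikbke, Tbk1 and Tab2 had 0.23, 0.09 and 0.09 (edgeR, adjusted p = 3.86e-06, 0.0123 and 0.0603).

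The RHIM and TRIF list had 1 of 6 genes up, 0 down past the criteria and a median of -0.02. The gene that rose was Ifih1 (log2 fold change 1.80), which encodes the RNA sensor MDA5 and has no RHIM. Tlr4, the LPS receptor, fell by 0.75 and Adar, whose long form shares the Z-nucleic acid domain of ZBP1, fell by 0.35 on the log2 scale. Ticam2, the adaptor that joins TLR4 to TRIF, had -0.08 and did not pass the test (adjusted p = 0.179). Ticam1, which encodes TRIF, had 0.45 under TMM scaling, from 16.17 to 22.02 CPM (edgeR, adjusted p = 3.06e-06). Library size alone moved the median of all tested genes by -0.40. The value of Ticam1 under that scaling is not given here, so its rise is stated for TMM scaling only.

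Among RIPK3 and MLKL partners 1 of 10 genes rose, 0 fell past the criteria and the median was 0.22. Peli1, which encodes a ubiquitin ligase that acts on RIPK1 and RIPK3, rose from 52.8 to 222.7 CPM (log2 fold change 2.08). The chaperone genes Hsp90aa1 and Hsp90ab1, whose products hold RIPK3 and MLKL ready, rose by 0.61 and 0.32, and Chmp4b, part of the ESCRT machinery that repairs membranes hit by MLKL, by 0.13. Under library size alone Hsp90aa1 had 0.20, and Hsp90ab1 and Chmp4b turned to -0.08 and -0.28. Chmp4b had -0.02 under upper quartile scaling.

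The death-fold adaptors were the list with the lowest median, -0.86, with 0 of 7 genes up and 3 down past the criteria. Card6 fell by 1.72, Dedd by 1.25 and Dedd2 by 1.25 on the log2 scale; the last pair encodes nuclear proteins with the death effector domain that FADD, caspase-8 and cFLIP also carry. Pea15a and Cradd had -0.02 and -0.08 and did not pass the test, and Faf1, a FAS-associated protein, had 0.13, which turned to -0.27 with library size alone and to -0.01 when scaled by the upper quartile.

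Among executioners of apoptosis and their inhibitors 1 of 8 genes rose and 1 fell past the criteria, with a median of 0.02. Apaf1, the scaffold of the apoptosome, rose from 131.9 to 294.5 CPM (log2 fold change 1.16, and 0.75 with library size alone, under the fold criterion), and Bid, the substrate through which caspase-8 reaches mitochondria, fell from 39.5 to 15.6 CPM (-1.34). Casp9, the protease of the apoptosome, fell by 0.98 on the log2 scale, just under the fold criterion. Xiap, the caspase inhibitor, had 0.27, which turned to -0.14 with library size alone.

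**Figure D5:**
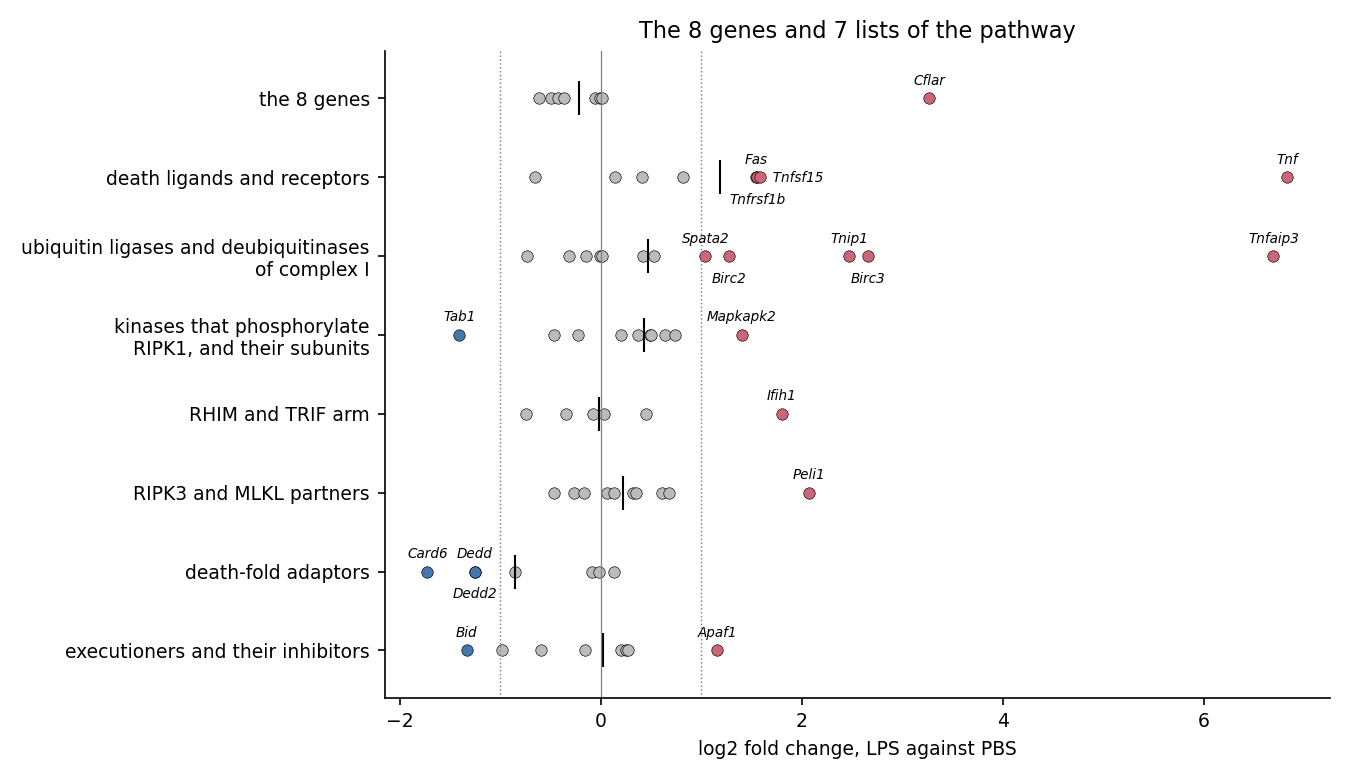
Log2 fold change (LPS against PBS) of each tested gene of the 8 members and of 7 pathway lists, with genes past the criteria in red (up) or blue (down) and named, others in grey, list medians as black ticks and dotted lines at the fold criterion of 1. Tnf and Tnfaip3 lie farthest to the right at 6.83 and 6.70, Cflar stands apart from the other members, and the death-fold adaptors have the lowest median at -0.86.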

How the data were processed

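Total RNA of BMDMs was sequenced in 6 libraries prepared with a stranded total RNA kit with globin removal. Per the labels and the study's methods, the authors aligned reads to GRCm38 with HISAT2 2.1.0, used FastQC 0.11.9 and SAMtools 1.17 and deposited the raw counts per gene made with featureCounts 2.0.0. The annotation release, the strand setting and the handling of multi-mapping reads are not given in the sources used here. Of the 55335 identifiers, 54587 are identical to GENCODE M21 and 55154 match without the version; 181 have no symbol.

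Groups and replicate numbers came from the labels. Counts were tested in R 4.3.3 with edgeR 4.0.16 (filterByExpr, 15687 genes kept, TMM scaling, quasi-likelihood test, Benjamini-Hochberg over the tested genes). A check on simulated data came first. Its rises and falls were equal in number and size, so it did not bear on the choice of scaling. The SE came from the F statistic and 95% intervals from its degrees of freedom. CPM are scaled by TMM factors, and ratios within a library used a pseudocount of 0.5. Intervals and the floor of 3 counts take no account of duplicate reads, so the floor covers counting error only. The criteria, a log2 fold change beyond 1 in either direction at an adjusted p under 0.05, and the pairwise design follow the study.

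The labels give same-numbered libraries one batch, so the numbers pair the libraries. Across tested genes, deviations from the group means correlated at -0.01, 0.08 and 0.04 in the 3 pairs. The mean was 0.036 for these pairs and -0.018 for PBS and LPS libraries with different numbers.

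The members and lists were chosen with earlier results of these data known. Named were the 8 members; in each list every gene past the criteria and up to 3 others with the highest mean count; for the 2 members that changed most, the 3 genes of nearest course; and genes that overlap an exon of a member. Some items are not reported here. Gm37760, in a Casp8 intron, and Rnf31, Sharpin and Ticam1 lie outside this rule and were chosen after their values were seen. Alternatives were other scalings, filters, DESeq2 1.42.0, limma 3.58.1 voom, a replicate block, leaving out each library, leaving out the 10 most abundant genes and a test against a log2 fold change of 1.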

Additional observations from a re-analysis of the deposited data

How the results depend on the processing

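The rise of Cflar and the falls of Ripk1, Fadd, Tradd and Zbp1 kept their direction and an adjusted p under 0.05 in the 15 alternatives run for them. Ripk3, Mlkl and Casp8 moved with the scaling. With library size alone they had -0.40, -0.41 and -0.47, and with upper quartile scaling -0.13, -0.15 and -0.20, past the adjusted p except for Ripk3 with upper quartile scaling. Ripk3 had -0.015 with a filter of 1 count in any library and -0.0073 with 10 counts in every library, and Mlkl 0.013 with DESeq2 size factors and 0.0131 with the DESeq2 test. Leaving out each library gave -0.0321 to 0.0408 for Ripk3, -0.0388 to 0.0326 for Mlkl and -0.0403 to 0.0042 for the log2 ratio of Mlkl to Ripk3. Without a fold criterion 5159 genes rose and 5467 fell, 4 of them members. Genes that fell past the criteria numbered 1624, and 2964 with library size alone (1 of them a member and 11 of the pathway lists, with 1213 genes up, 10 of them of the pathway lists in place of 13), 1027 with 10 counts in every library and 922 when tested against a log2 fold change of 1. Signs also turned for Tnfrsf21 (-0.26), Otulin (-0.40), Hsp90ab1 (-0.084), Chmp4b (-0.28), Faf1 (-0.27), Xiap (-0.14) and Serpinb6a (-0.36) with library size alone; for Otulin (-0.13), Chmp4b (-0.015), Faf1 (-0.011) and Serpinb6a (-0.10) with upper quartile scaling; for Rbck1 (0.015) and Pea15a (0.002) with DESeq2 and its size factors; and for Otulin with filters of 1 count (-0.015) and 10 counts (-0.0071). Without 1 library Rbck1 ranged from -0.0389 to 0.0263 and Otulin from -0.0402 to 0.0326. Of named genes just inside the adjusted p, Tnfrsf21 and Chmp4b lost it without LPS replicate 2 (0.13 and 0.09) and Tnfrsf21 without PBS replicate 3 (0.11). The causes were not tested.

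With the replicate block, the pairing the labels give, 1652 genes rose and 1624 fell, and no call on a member changed. SEs were widest for the members with the fewest counts, Fadd (0.08) and Ripk3 (0.07). Counts per gene do not separate splice forms, and strand was not known. With 3 libraries a group, an exact permutation test cannot go below 0.1 unpaired or 0.25 paired by batch. Changes of Ripk3, Mlkl and Casp8 within their intervals could not be told from 0.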
